A study of Acacia koa with 4 samples.

Results

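Transcripts A72822 and A75527 of koa (Acacia koa), a Hawaiian forest tree of the legume family, carry the descriptions zinc-finger protein 1 and zinc finger protein, each the name of a similar protein in a sequence database. They are 2 of the 4000 transcripts on the array and were chosen by their intensities, which were far higher in seedlings whose stems had been bent than in seedlings left alone. That contrast is therefore described here by its values and is not tested for these transcripts. The stressed group held 2 pools of koa seedlings whose stems had been bent by hand towards the 4 cardinal directions without wounding, and the unstressed group held 2 pools of seedlings that had not been bent. Each pool joined about 20 seedlings, and the labels name no other treatment, genotype or age for either group. Frozen seedlings were powdered before RNA was extracted, so a value averages over the organs of the plant, and more cells that make a transcript cannot be told apart from more RNA per cell. How long after bending the seedlings were frozen is not stated in the labels.

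A zinc finger is a small protein fold in which cysteine and histidine residues hold a zinc ion. Different classes of the fold bind DNA, RNA or other proteins, so the name alone does not say what a protein does. In Arabidopsis, several DNA-binding proteins of the C2H2 class, among them members of the ZAT group, are known as early responders to cold, wounding and oxidative stress and mostly act as repressors of other genes. The RING class, in contrast, is best known for attaching ubiquitin to proteins that are to be degraded. The descriptions of A72822 and A75527 name no class, and no class is assigned to them here.

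The array gives 1 linear RMA intensity per transcript and pool, summarised from 18 probes for each of these transcripts. Median intensities of the arrays were 991 and 1018 in the stressed pools and 981 and 1010 in the unstressed pools. The brightest transcript of each array reached 64415 to 64925. The material was checked with markers: both transcripts on the photosynthesis list lay among the 400 brightest transcripts in all 4 pools and took 0.85% to 0.864% of the summed intensity of each array. Transcripts on the list of cytosolic ribosomal proteins took 2.13% and 2.21% of the summed intensity in stressed pools and 1.74% and 2.17% in unstressed pools, and 37 of 46 had a positive log2 difference. The xylem and secondary wall list took 2.14% and 2.18% in stressed pools and 2.42% and 2.16% in unstressed pools, and the root and nodule list 0.238% and 0.248% in stressed pools and 0.204% and 0.251% in unstressed pools. On these 3 lists unstressed replicate 1 stood apart from the other 3 arrays. Without it, the log2 differences of A72822 and A75527 were 3.93 and 4.15, against 3.92 and 3.89 with all arrays.

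Zinc-finger protein 1 (A72822) had intensities of 16258 and 18093 in the stressed pools and of 1136 and 1127 in the unstressed pools. The stressed values were thus far above the unstressed ones, with no overlap, and the pools within each group lay close together. On the log2 scale the level was 14.07 ± 0.11 (SD, n = 2) in stressed and 10.14 ± 0.01 (SD, n = 2) in unstressed pools. The log2 difference was 3.92, a ratio of geometric means of 15.2-fold. The limma 95% interval for that ratio, whose variance draws in part on all transcripts, was 12.1 to 19.0. Because this contrast chose the transcript, the interval is given as a description and not as a test. Each stressed pool set against each unstressed pool gave ratios of 14.3, 14.4, 15.9 and 16.1. The stressed pools differed by 1.11-fold, close to the median of 1.10-fold over all transcripts. The unstressed pools differed by 1.01-fold, and 96.6% of all transcripts differed by more between these pools.

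The zinc finger protein A75527 had intensities of 9534 and 7552 in the stressed pools and of 684 and 479 in the unstressed pools. Again the groups did not overlap, but here the pools of a group stood further apart. The log2 level was 13.05 ± 0.24 (SD, n = 2) in stressed and 9.16 ± 0.36 (SD, n = 2) in unstressed pools. The log2 difference was 3.89, or 14.8-fold with a limma interval of 9.87 to 22.3. The pool-to-pool ratios were 13.9, 19.9, 11.0 and 15.8, so the choice of pools alone moved the ratio more than for A72822. Between the stressed pools it differed by 1.26-fold, and 14.1% of transcripts differed by more. Between the unstressed pools it differed by 1.43-fold, which 12.7% of transcripts exceeded. The ratios of A72822 fell inside the range of those of A75527, so the size of the difference could not be told apart between these transcripts at this number of pools.

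**Figure D1:**
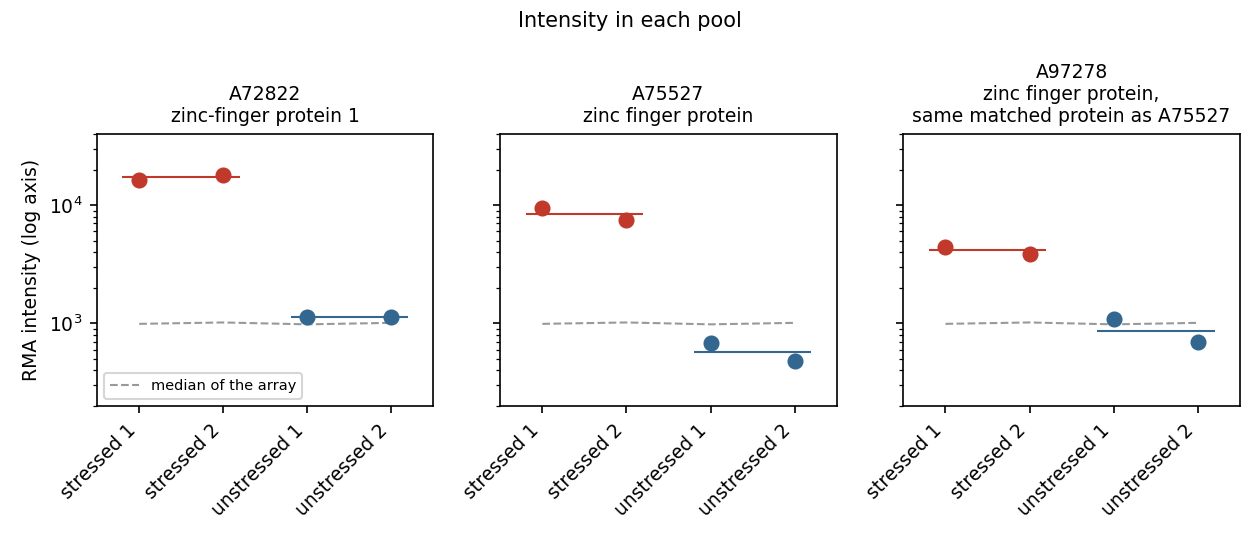
RMA intensity on a log axis in each of the 4 pools for A72822, A75527 and A97278, the transcript matched to the same protein as A75527. Points are single arrays, solid lines the geometric mean of the 2 pools of a group and the dashed line the array medians; in all 3 panels both stressed pools lie above both unstressed pools.

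The pools of A75527 followed the replicate number, with pool 1 above pool 2 in both groups, whereas A72822 was brighter in stressed pool 2 than in stressed pool 1. Leaving out any single array kept the log2 difference of A72822 between 3.85 and 4.00 and that of A75527 between 3.63 and 4.15.

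In bent seedlings both transcripts were among the 400 brightest on the array, and in unbent seedlings both lay near its middle. A72822 was 16.4 and 17.8 times the array median in the stressed pools and 1.16 and 1.12 times in the unstressed pools. When the 4000 transcripts were ordered from the brightest down, it took places 110 and 91 in the stressed pools and places 1829 and 1875 in the unstressed pools. A75527 was 9.62 and 7.42 times the median in the stressed pools and below it, at 0.697 and 0.474 times, in the unstressed pools. Its places were 210 and 289 in the stressed pools and 2431 and 2759 in the unstressed pools. A place also depends on how well the probes of a transcript bind, so it describes the shift and not the amount of RNA relative to other transcripts.

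**Figure D2:**
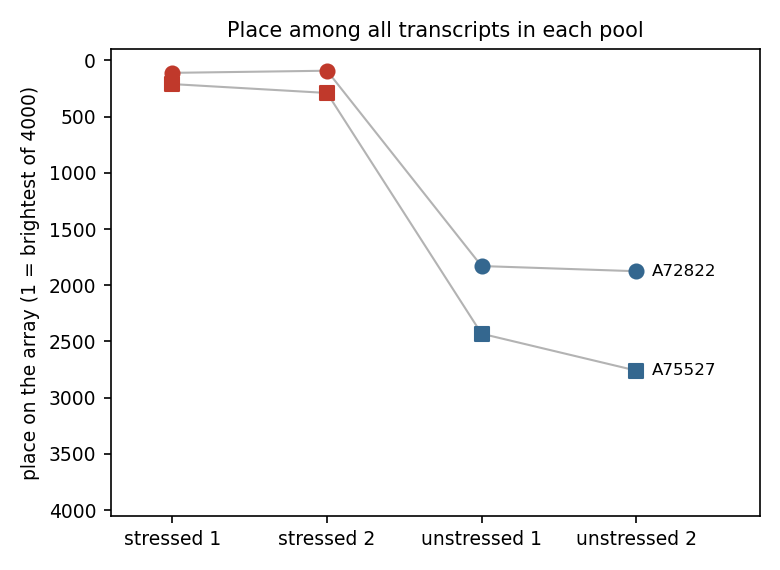
Place of A72822 (circles) and A75527 (squares) among 4000 transcripts in each pool, with place 1 the brightest and the axis running downwards. Both sit within the first 300 places in the stressed pools and beyond place 1000 in the unstressed pools.

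Few transcripts differed as much in place. Comparing pools of the same number, A75527 gained 2221 and 2470 places in the stressed pools. No other transcript gained as many in both comparisons, and 4 gained at least 2000 in both. A72822 gained 1719 and 1784 places, and 9 transcripts, A75527 among them, exceeded 1719 in both comparisons. It started nearer to the top than A75527 and had fewer places to gain. Only 4 transcripts lay within the first 300 places in both stressed pools and beyond place 1000 in both unstressed pools: A72822, A75527, the RING finger protein A142190 and mitogen-activated protein kinase 2 (A23526), a member of a kinase family that relays stress signals. A72822 was the only one of these to reach the first 150 in both.

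Across all transcripts the log2 difference of A72822 was the second largest and that of A75527 the third. The RING finger protein A142190 stood above them at 4.17, with 12320 and 16364 in stressed pools and 725 and 862 in unstressed pools. Next below came the EREBP-3 homolog A62860, named after proteins that bind the ethylene response element, at 3.18, and A127474, a protein phosphatase 2C from a family with known negative regulators of abscisic acid signalling, at 3.15. The median over all transcripts was −0.04. Both members belonged to the 37 of 4000 transcripts (0.925%) that limma called higher at an adjusted p under 0.05. One transcript (0.025%) was called lower. Since this contrast chose the members, nothing is read from their calls.

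A stricter description uses the pools at the edges, the dimmer stressed pool over the brighter unstressed pool. For A72822 this ratio was 14.3, the largest of all 4000 transcripts, just ahead of A142190, whose dimmer stressed pool was also 14.3 times its brighter unstressed pool. A75527 followed as number 3 at 11.0, and A62860 came after it at 8.09. A ratio of at least 10 was reached by 3 transcripts (0.075%), of at least 4 by 15 (0.375%) and of at least 2 by 42 (1.05%). Both stressed pools lay above both unstressed pools, by any margin, in 480 transcripts (12%). The order at the top depended on the pools compared: A72822 was second in all 4 pool-to-pool comparisons, and A75527 was number 1 in 1 of them and number 3 in the other 3.

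**Figure D3:**
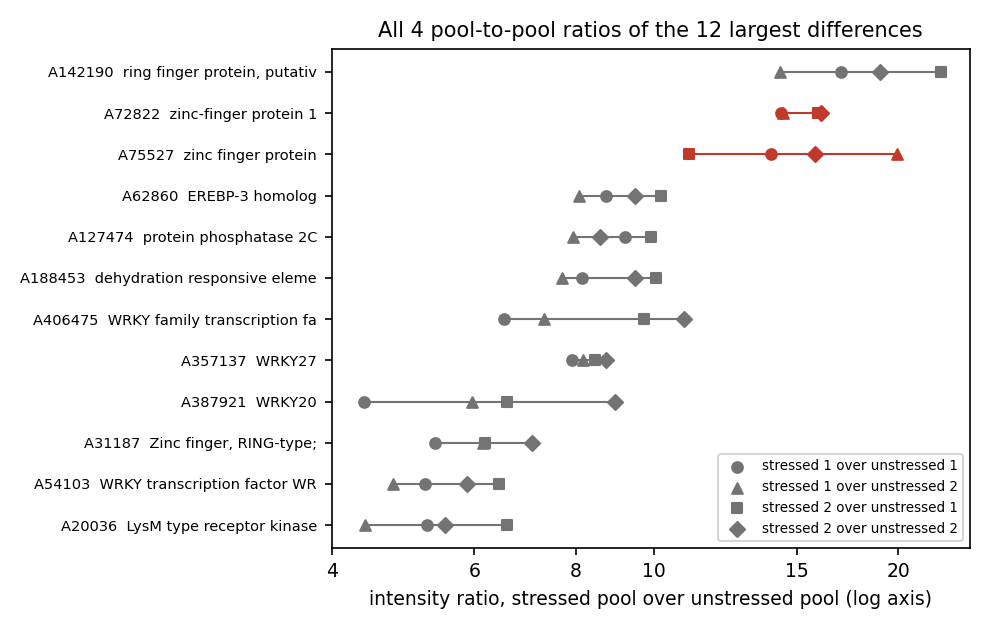
Intensity ratio of each stressed pool over each unstressed pool, on a log axis, for the 12 transcripts with the largest mean log2 difference, ordered from the largest down; marker shapes give the pair of pools and A72822 and A75527 are red. The ratios of A72822 span 14.3 to 16.1 and those of A75527 span 11.0 to 19.9, while A62860 and the 8 transcripts under it stay below the geometric means of both.

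Most transcripts with a similar level in unbent seedlings had differences near 0. Within 0.25 log2 units of the unstressed level of A72822 lay 370 other transcripts, with a median log2 difference of −0.03 and a range from −1.05 to 2.26. Only 3 of them exceeded 1. Around the unstressed level of A75527 lay 340 others, with a median of −0.06, a range from −0.72 to 3.18 and 11 above 1. The highest value in that range was that of A62860. Among transcripts as bright as the members were in bent seedlings, most had been bright in unbent seedlings too. Of 55 others near the stressed level of A72822, 2 had a log2 difference above 1, the highest being 1.98. Of 110 near the stressed level of A75527, 4 did, led by A127474 at 3.15.

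**Figure D4:**
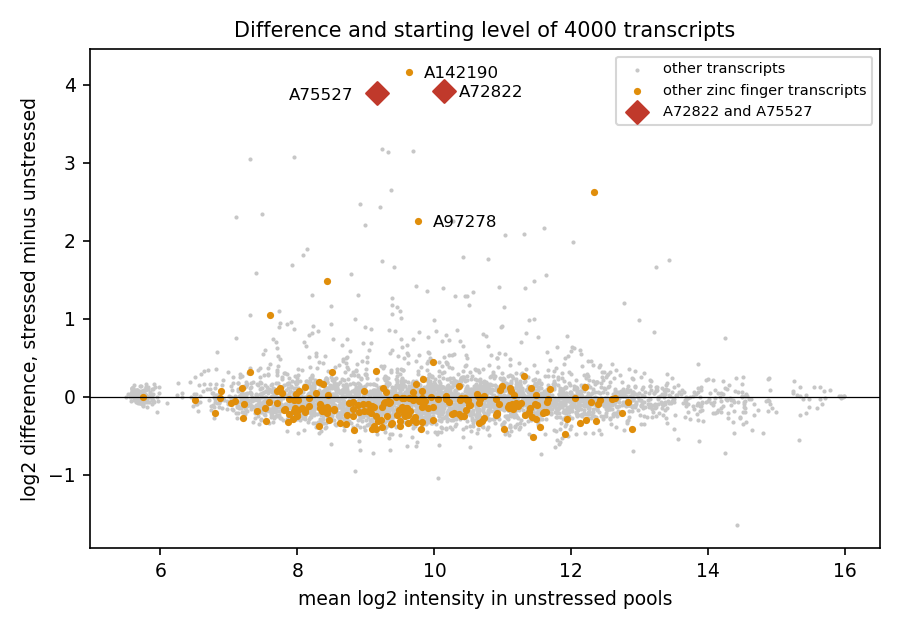
Log2 difference (stressed minus unstressed) against the mean log2 intensity in unstressed pools for 4000 transcripts, with A72822 and A75527 as red diamonds, other zinc finger transcripts in orange and the rest in grey. The diamonds lie at 3.92 and 3.89, above all transcripts within 0.25 log2 units of their own unstressed level. A142190, which starts from a level between theirs, lies higher at 4.17. Most orange points lie near 0.

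Of the 4000 transcripts, A97278 was the only other one matched to the same database protein as A75527, and it too is described as a zinc finger protein. Whether these transcripts come from separate genes was not tested. A97278 had 4405 and 3898 in stressed pools and 1092 and 691 in unstressed pools. The groups did not overlap, and as for A75527 pool 1 was the brighter in each. Its log2 level was 12.02 ± 0.12 (SD, n = 2) in stressed and 9.76 ± 0.47 (SD, n = 2) in unstressed pools. It was 4.77-fold higher (log2 difference 2.25, limma adjusted p = 0.033), a smaller difference than that of A75527 at 3.89. The call ended without stressed replicate 1 (limma adjusted p = 0.217) and without stressed replicate 2 (0.192). It also ended with quantile normalization (0.0628) and with an offset of 64 (0.068), and over all alternatives the adjusted p ran from 3.8e-08 to 0.217. Transcripts similar to one protein may bind each other's probes, and how far A75527 and A97278 were measured separately was not tested. Sharing was not unusual, since 1728 of the 3999 transcripts with a matched protein named shared it with another, though not always in pairs. Of the 37 called higher, 11 did, a smaller share. For 4 of these 11 another transcript of the same protein was also called higher. These 4 were A75527 and A97278 themselves, and A10271 and A357137, both described as WRKY27. Because A75527 was chosen by this contrast, nothing is read from the count of its own pair. How often shared proteins are called together by coincidence was not tested. A72822 shared its matched protein with none.

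The other transcripts described in the same words as A75527 did not follow it. Of 9 with the description zinc finger protein, A97278 was the only one called, where 0.925% of all transcripts were called higher. The other 8 had log2 differences from −0.32 to 0.14. The largest of these in size were A242706 at −0.32, with 4146 and 4283 in stressed pools and 5970 and 4604 in unstressed pools, and A15292 at −0.20, with 2696 and 2717 in stressed pools and 3011 and 3222 in unstressed pools. Neither was called (limma adjusted p = 0.986 for each), and both were negative under every alternative run.

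The transcripts whose patterns were most like those of the members were found by the root mean square distance between log2 intensities over the 4 arrays, each transcript centred on its own mean. This measure rests on 4 arrays and mostly reflects the size of the difference between groups. Nearest to A72822 was A142190 at a distance of 0.18, followed by A75527 at 0.25, A62860 at 0.37, A127474 at 0.39 and A188453, a dehydration responsive element-binding protein and so of a family known from drought and cold responses, at 0.40. Nearest to A75527 was A72822 at 0.25, then A142190 at 0.40, A62860 at 0.46, the transcription factor WRKY27 (A357137) at 0.48 and A127474 at 0.48.

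Most other zinc finger transcripts had log2 differences near 0, unlike A72822 and A75527. Besides these, 217 transcripts were described as zinc fingers of some kind. Of these, 5 were called higher (2.3%, against 0.925% of all transcripts) and 0 lower (against 0.025% of all). The 217 had 44 positive and 173 negative log2 differences (79.7% negative, against 60.8% of all transcripts). Their median was −0.13, against −0.04 over all transcripts, and both stressed pools lay above both unstressed pools in 15 of them (6.91%, against 12% of all). The CCHC class made up 105 of the 217 and 91 of the 173 negative values. Leaving out 1 array moved the median of the 217 to between −0.18 (without unstressed replicate 2) and −0.06 (without unstressed replicate 1). In the fit without unstressed replicate 1, singled out after seeing the data, 139 of the 217 were negative. At an unadjusted limma p under 0.05, 6 of the 217 were higher and 4 lower, beside 153 (3.83%) and 67 (1.68%) of all transcripts. The differences of 3.92 and 3.89 stood far outside the bulk of transcripts that share the name, which follows from how the members were chosen. Among the 217, A142190 exceeded both at 4.17.

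The 5 called were A142190 (17.96-fold), A31187 (6.16-fold), A97278, A47392 (2.79-fold) and A433991 (2.08-fold), with limma adjusted p from 0.0035 to 0.0477. A142190, A31187 and A47392 were 3 of 37 RING transcripts (8.11%, against 0.925% of all transcripts), whose median was −0.05. A47392 was also the only transcript described with a PHD finger, a fold that often reads histone tails. A433991 shared its matched protein with 55 other transcripts, none of them called higher. It was 1 of 105 of the CCHC class (0.952%, near the 0.925% of all transcripts), a fold common in proteins that bind single-stranded nucleic acid. That class had a median of −0.19. Leaving out 1 array moved it to between −0.34 (without unstressed replicate 2) and −0.04 (without unstressed replicate 1). Of these 5, A142190 was called in each of the 4 fits that left out 1 array, A31187 in all but the fit without stressed replicate 2 (limma adjusted p = 0.0698), and A47392 and A433991 in none.

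The class best known from early stress responses was hardly represented by name. The single transcript described as C2H2, A120408, had 737 and 951 in stressed pools and 1063 and 787 in unstressed pools, so the groups overlapped. Its log2 difference was −0.13 (limma adjusted p = 0.986), and over the alternatives it ran from −0.34 to 0.09. Neither did the 2 CCCH transcripts, the 5 described as CONSTANS-like, a class named after a regulator of flowering time in Arabidopsis, or the 4 described with a LIM domain hold any that was called. Their log2 differences ran from −0.03 to 0.11, from −0.15 to 0.13 and from −0.13 to 0.11. Since 0.925% of all transcripts were called higher, a lack of calls in so few transcripts says little about these classes. No description named a Dof, GATA, DHHC, A20 or AN1 finger. Another 63 zinc finger transcripts, like A72822 and A75527, matched none of the 11 class searches. A97278 was the only one of them called (1.59%, against 0.925% of all transcripts), and their median was −0.07.

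**Figure D5:**
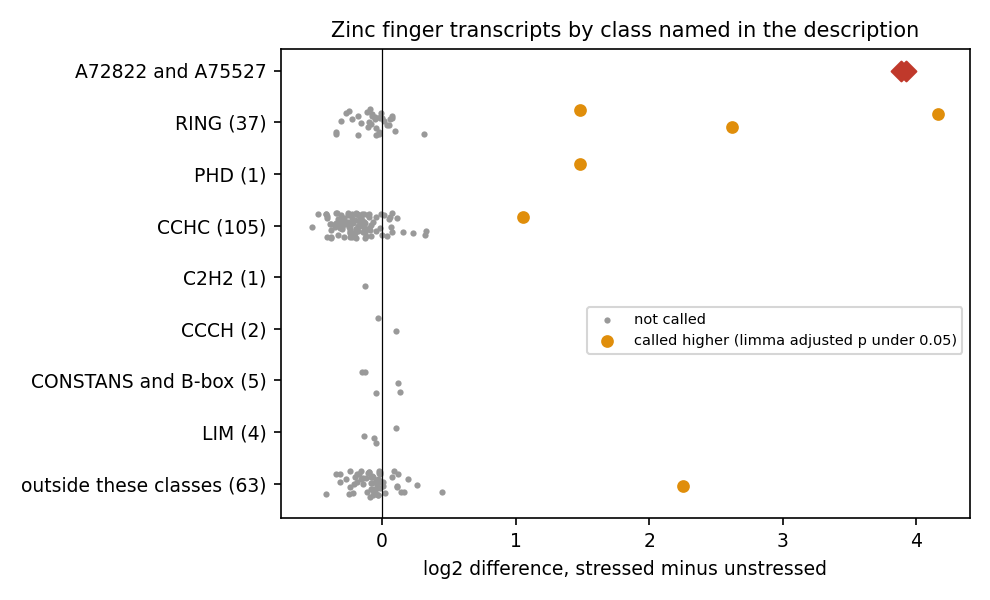
Log2 difference (stressed minus unstressed) of the 217 other zinc finger transcripts by the class named in the description, with the number per class in brackets and those that matched no class search in the bottom row, and of A72822 and A75527 in the top row. Orange points passed limma's adjusted p under 0.05; A47392 appears under both RING and PHD. Most points lie between −0.5 and 0.5.

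Families that often act together with stress-responsive zinc finger factors held calls as well. The lists below were chosen with earlier results of these data known, so their shares are descriptions and not independent support. Among 30 WRKY transcripts, a family best known from defence, 7 were called higher (23.3%, against 0.925% of all transcripts), led by A406475 (8.42-fold). Of 46 in the ERF, DREB and AP2 families, which act in ethylene, drought and cold responses, 5 were called higher (10.9%), led by A62860 (9.08-fold). In the protein phosphatase 2C list 2 of 21 were called (9.52%), led by A127474 (8.87-fold), in the calcium list 2 of 75 (2.67%), led by the EF-hand protein A17246 (2.95-fold), and in the MAP kinase list 1 of 8 (12.5%), A23526 (4.19-fold). Both stressed pools lay above both unstressed pools in 40% of the WRKY, 39.1% of the ERF, DREB and AP2, 38.1% of the phosphatase, 37.5% of the MAP kinase and 21.3% of the calcium transcripts, against 12% of all. The limma adjusted p of these leading transcripts ran from 0.0035 to 0.0237, and A17246 and A23526 were called in no fit that left out 1 array. None of the 6 oxidative burst or 13 heat shock factor transcripts was called, and no transcript of any of these 7 lists was called lower. With 0.925% of all transcripts called higher and 0.025% lower, these absences say little about the families. The median log2 differences of the lists ran from −0.04 to 0.12. No transcript of these lists reached the log2 differences of A72822 or A75527, which follows from how the members were chosen.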

How the data were processed

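RNA of 4 pools was labelled with Cy3 and hybridised to 1-colour NimbleGen arrays, 1 pool per array, per the labels. The deposited intensities are the authors' output of RMA, as the submitters' processing notes name it. RMA corrects background, equalises the arrays and summarises up to 18 probes per transcript. Its version and options are not given in the sources. The values of the whole-series table equalled those of the array files (largest difference 0). RMA removes a shift common to most transcripts and can understate differences of dim or very bright ones.

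Log2 intensities of all 4000 transcripts, unfiltered, were fitted in R 4.3.3 with limma 3.58.1 (lmFit, eBayes) on a single term for the group, with 2 residual and 2.93 prior degrees of freedom, and Benjamini-Hochberg adjustment over all transcripts. Precision is limited by the number of arrays, and p-values rest on the spread between pools. The fit was tested on simulated arrays. Lists were searched as terms in the descriptions. Named transcripts are the members, the 5 nearest profiles of each, neighbours in the order of differences, the 3 largest differences with the same description, called zinc fingers (otherwise those with the smallest p, given partly as ranges) and the leading called transcript of each partner list. Members and lists were chosen with earlier results of these data known. Alternatives left out 1 array, blocked on the replicate number, renormalized, added an offset, filtered dim transcripts, used an intensity trend or loosened the threshold.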

Additional observations from a re-analysis of the deposited data

How the results depend on the processing

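Over 9 alternatives each, the log2 difference of A72822 ran from 3.85 to 4.00 and that of A75527 from 3.63 to 4.15. By arithmetic, leaving out 1 of 2 pools cannot move a difference by more than the SD between pools (0.08 and 0.31). The replicate block and the filter of dim transcripts cannot move it at all. With quantile normalization, median centring and the offset of 64, A72822 had 3.93, 3.91 and 3.85. A75527 had 3.91, 3.88 and 3.75. Both stayed among the 3 largest differences. The counts around them depended more on the arrays. Leaving out 1 array gave 8 to 26 transcripts called higher (10 without stressed replicate 1, 8 without stressed replicate 2, against 37), 0 to 1 called lower, and 1 to 3 other zinc finger transcripts called higher (3 with either unstressed array left out, 2 without stressed replicate 1 and just 1 when stressed replicate 2 was left out, against 5). Each of these fits had fewer arrays and took the spread between pools only from the group that kept both pools. The cause of the smaller counts was not tested. With a replicate block, 123 were called higher and 16 lower, while the other zinc finger transcripts called higher stayed at 5. Deviations of same-numbered pools correlated at 0.505 over the 4000 transcripts, a hint that the numbers mark something shared. The labels do not say what they mark and there are only 2 pairs, so the block was kept as an alternative. Quantile normalization left 3 other zinc finger transcripts called higher and the offset of 64 left 2; the cause was not tested. Of 207 values of other named transcripts under the alternatives, 182 stayed on the same side of the threshold and 25 lost their call. The 207 include transcripts not called with all arrays, such as A120408 and A15292, which had no call to lose. The 182 therefore do not measure how stable the calls were.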
